A study of Mus musculus with 12 samples.

Results

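Neurons carrying a knockout at the Daam1 microexon (KO) were compared with wild-type neurons (WT) while both were under a ROCK inhibitor. The comparison was chosen by its labels and took 6 of the 12 RNA-seq libraries of the series, 3 KO and 3 WT. All of the cells were mouse embryonic stem cells differentiated in culture into glutamatergic neurons and grown to day 21. The inhibitor group received 10 µM Y-27632 for 2 hours, and the vehicle group received water for the same time. By their labels, each of the 3 WT cell lines and 3 KO cell lines gave 1 vehicle and 1 inhibitor library, and the lines are the replicates within a group. The sample labels name the genotypes Daam1-MIC_WT and Daam1-MIC_KO. They do not say whether the lines are separate clones, how the knockout was made, or which exon was removed. If the lines of a genotype are not independent, the p-values measure only the spread between these libraries, which may be technical. The series' own design text describes hippocampus dissected from adult mice, whereas every sample label describes cultured neurons; the sample labels were followed here.

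Daam1 is a formin, a protein that nucleates and elongates unbranched actin filaments, and it acts downstream of Dishevelled in planar cell polarity signalling. ROCK is a kinase that raises myosin contractility and, through LIM kinase, stabilises actin filaments. Y-27632 blocks its kinase domain. Microexons are very short exons, many of which are spliced into messages mainly in neurons. Gene counts sum over all exons, so they cannot show whether a microexon is missing.

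The annotation holds one Daam1 exon of microexon size, and it is printed here because it is the kind of exon that the genotype label refers to. It is a 27-nucleotide coding exon at chr12:71958747-71958773 on the plus strand (GRCm38), exon 16 in 2 of the 3 coding transcripts, and the other coding transcript skips it. In the sequences of both junctions, the exon is in capitals and 21 bases of each neighbouring exon are in lower case.
Daam1 with the microexon: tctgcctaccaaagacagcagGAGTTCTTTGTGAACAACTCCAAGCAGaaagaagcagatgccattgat
Daam1 without the microexon: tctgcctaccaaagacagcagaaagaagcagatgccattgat
The exon length is a multiple of the codon size, so the reading frame is the same in both forms. The level of Daam1 over the whole gene (chromosome 12, 71831078 to 71992333) was 168, 169 and 133 CPM, a library's counts scaled to a common total, in WT lines 1, 2 and 3. It was 167, 188 and 67.9 CPM in KO lines 1, 2 and 3. The ranges overlapped, and the log2 fold change of KO over WT was -0.12 ± 0.40 (SE) with all 6 libraries. It was 0.21 ± 0.14 when KO line 3 was left out, so 1 library sets its sign. Daam1 abundance therefore does not check the genotype labels.

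The inhibitor libraries held 27017878 to 35012561 counts each. The library labelled KO line 3 stood apart from the other 5. On the first principal component, which held 81.7% of the variance, it lay at 142 and the others between -93.4 and 31.3. Against the other inhibitor libraries its correlation of log2 CPM had a median of 0.854, where the rest had 0.970 to 0.978. Ddx3y, Eif2s3y and Uty, which lie on the Y chromosome, had 0 counts in it, although the vehicle library of the same line held 32.8, 21.9 and 13.5 CPM. It also held 148 CPM of Gkn1, a stomach-lining secreted protein, against at most 7.53 CPM in the other inhibitor libraries. Its summed level of 24 presynaptic genes was 3030 CPM against 9400 to 12600. The summed level of the listed epithelial and endoderm markers was 1830 CPM against 11.4 to 447. The library labelled WT line 3 also differed from the vehicle library of its line, with 450 against 19.1 CPM of Meg3 and 0.595 against 16.3 CPM of Lrmp. These values go against the line labels of both libraries. Deviations from the group means correlated between the vehicle and inhibitor libraries of a line at -0.736 (WT line 3) to 0.586 (KO line 2), with 4 of the 6 lines below 0. Whether libraries are mislabelled was not tested, and every comparison of KO with WT below rests on the labels. Results are therefore given with all 6 libraries, without KO line 3 and, where it matters, without both libraries labelled line 3.

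**Figure D1:**
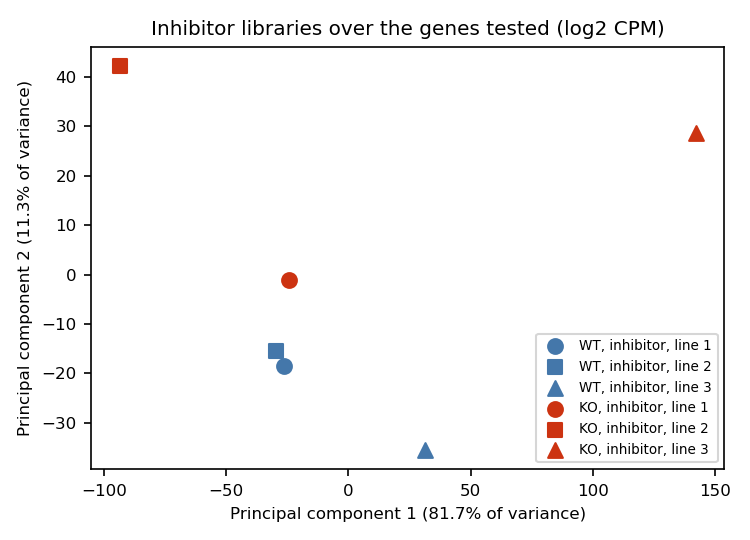
Principal components 1 and 2 of log2 CPM over the genes tested, 1 point per inhibitor library, blue for WT and red for KO, with a shape for each line number. The library labelled KO line 3 lies at 142 on component 1, and the other 5 lie between -93.4 and 31.3.

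The neuronal label was checked in the same libraries. Slc17a6, the vesicular glutamate transporter of subcortical neurons, stood at 278, 305 and 242 CPM in WT and at 325, 423 and 51.7 CPM in KO. Grin1, an obligatory NMDA receptor subunit, stood at 426, 478 and 409 CPM in WT and 546, 556 and 116 CPM in KO. The forebrain genes Neurod2, Neurod6, Tbr1 and Emx1 were at or below 2.07 CPM in every inhibitor library. Gad1, the GABA-synthesising enzyme of inhibitory neurons, was also present, at 180 to 205 CPM in WT and 86.7 to 240 CPM in KO.

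No gene passed the test for KO against WT under the inhibitor at an edgeR adjusted p below 0.05. With all 6 libraries 15083 genes were tested, 0 (0%) were called, and the smallest adjusted p was 0.98. Without KO line 3, 15285 genes were tested, 0 (0%) were called and the smallest was 0.394. The counts below therefore use the unadjusted edgeR p at 0.05, and higher and lower describe measured values, not calls. By that rule 330 genes (2.19%) stood out with 6 libraries, 71 higher (0.471%) and 259 lower (1.72%), fewer than the 754.2 that a test with no true difference would give. Without KO line 3 the count was 1816 (11.9%), with 868 higher (5.68%) and 948 lower (6.2%). Without both line 3 libraries it was 1794 of 15034 genes (11.9%), with 5.65% higher and 6.28% lower. In that fit 2 genes (0.0133%) were called at an edgeR adjusted p of 0.0361, Col1a2 and Lrmp, both lower in KO; over the alternatives their adjusted p reached 1. DESeq2, the alternative to edgeR, called 53 genes (0.351%) with 6 libraries, 10 higher (0.0663%) and 43 lower (0.285%). Without KO line 3 it called 369 (2.41%), 161 higher (1.05%) and 208 lower (1.36%), and 51 genes were called in both.

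A gene was taken to hold in both fits when its unadjusted edgeR p was below 0.05 with 6 libraries and with 5, in the same direction. This was true of 279 of the 15083 genes (1.85%), 59 higher in KO (0.391%) and 220 lower (1.46%). All 220 lower genes, and 57 of the 59 higher genes, had no overlap between the 3 KO and 3 WT libraries; over all genes tested, 7.01% were free of overlap with KO lower and 3.57% with KO higher. All 279 also kept their direction without both line 3 libraries, where 192 of the lower genes and 52 of the higher genes had p below 0.05. The 279 were selected on these same libraries. Their counts of overlap and of direction therefore follow largely from the selection and are no separate support. The library labelled KO line 3 bore differently on the directions. Of the 934 genes tested in both fits that were lower without it, 220 (23.6%) held with it. Of the 861 that were higher without it, 59 (6.85%) did. Many of the genes named below overlap an annotated gene on the opposite strand, among them Aspn, Bnip3, Col18a1, Col5a1, Dvl1, Eng, Gli1, Hk2, Lrmp, mt-Nd6, Sycp3, Tpi1 and Triobp, and their counts are uncertain if the strand was not used.

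**Figure D2:**
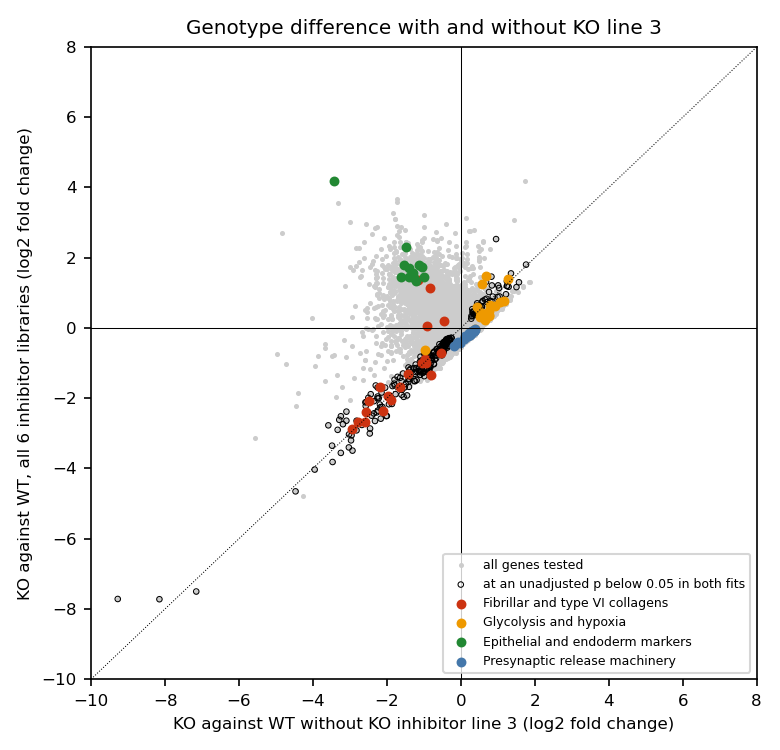
Log2 fold change of KO over WT under the inhibitor for each gene tested in both fits. The fit without KO line 3 is on the x axis and the fit with all 6 libraries on the y axis. Open black circles are the 279 genes that held in both. Coloured points are the collagen, glycolysis and hypoxia, epithelial and endoderm, and presynaptic lists. Among all 15083 genes 48.9% had the same sign in both fits, and the 59 higher and 220 lower genes lie in the corners where the signs match.

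Genes of the fibrous extracellular matrix were the largest group among the listed genes that were lower in KO in both fits. Collagens I, III and V form the banded fibrils of connective tissue, collagen VI forms beaded filaments, and lysyl oxidase (Lox) crosslinks them. Of the 20 genes of the collagen list that were tested, 13 held as lower and 0 as higher, against 1.46% of all genes lower. In KO, 15 of the 20 lay below every WT library with all 6 libraries, against 7.01% of all genes. The list's median log2 fold change was -1.51 with 6 libraries and -1.54 without KO line 3, against 0.039 and -0.02 over all genes. It was -1.04 without both line 3 libraries. In bulk RNA, fewer cells of a type and less RNA per cell cannot be told apart.

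Col1a1 (chromosome 11, 94936224 to 94953042), a chain of type I collagen, stood at 128, 103 and 241 CPM in WT and at 19.5, 31.0 and 20.3 CPM in KO. Every KO library lay below every WT library, and the WT library of line 3 was the highest. Its log2 fold change was -2.69 ± 0.41 (SE) with 6 libraries, -2.60 ± 0.50 without KO line 3 and -2.16 without both line 3 libraries. Its edgeR adjusted p was 0.98 with 6 libraries, and its DESeq2 adjusted p was 3.09e-06; over the alternatives the adjusted p ran from 3.09e-06 to 1. Its partner chain Col1a2 stood at 57.6, 49.8 and 139 CPM in WT and at 13.0, 14 and 18.8 CPM in KO, with a log2 fold change of -2.38 ± 0.46. Col3a1 (chromosome 1, 45311538 to 45349706), the chain of type III collagen, stood at 91.0, 88.1 and 293 CPM in WT and at 15.7, 24.3 and 22.0 CPM in KO. The groups were again separate, with a log2 fold change of -2.88 ± 0.58 with 6 libraries and -2.94 ± 0.75 without KO line 3.

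The minor fibril and filament collagens were also separate between the groups, although the order of the KO lines varied. Col5a1, which helps to start fibrils, stood at 48.4, 40.1 and 113 CPM in WT and at 13.1, 22.3 and 11.4 CPM in KO. Col6a3 stood at 15.2, 14.4 and 43.6 CPM in WT and at 3.09, 7.83 and 2.77 CPM in KO. Col5a2, Col5a3, Col6a2, Col12a1, Col16a1 and Col11a2 also held, with log2 fold changes from -2.09 (Col6a2) to -0.87 (Col16a1) with 6 libraries. Col11a2, a cartilage and inner-ear collagen, was 8.38 to 13.9 CPM in WT and 4.81 to 6.42 CPM in KO. Lox stood at 17.9, 14.3 and 39.3 CPM in WT and at 4.31, 2.46 and 4.10 CPM in KO, with a log2 fold change of -2.68 ± 0.48, and its relative Loxl1 held at -1.69.

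Not all collagen genes were low in every KO library. Serpinh1, the collagen chaperone of the endoplasmic reticulum, stood at 291, 294 and 995 CPM in WT and at 446, 26.6 and 3430 CPM in KO. P4ha2, which hydroxylates collagen prolines, stood at 91.0, 85.8 and 220 CPM in WT and at 114, 34.0 and 684 CPM in KO. Both ranges overlapped, with KO line 2 lowest and KO line 3 highest. Col2a1, Col11a1 and Loxl2 overlapped as well, and Col6a1 and Col14a1 were separate between groups but did not hold. The summed level of all listed collagen genes was 4660 CPM in KO line 3, most of it from Serpinh1 and P4ha2, against 270 to 2680 CPM elsewhere.

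The small proteoglycans and the microfibrils, which organise collagen and elastic fibres, showed a similar pattern. Of 21 genes tested, 10 held as lower and 0 as higher, against 1.46% and 0.391% of all genes. The list's median log2 fold change was -1.11 with 6 libraries, -1.66 without KO line 3 and -1.03 without both line 3 libraries. Dcn (decorin), which binds collagen fibrils, stood at 18.2, 14.5 and 42.4 CPM in WT and at 2.72, 4.16 and 2.73 CPM in KO. Its log2 fold change was -2.92 ± 0.50 with 6 libraries and -2.82 ± 0.61 without KO line 3. Lum (lumican) stood at 6.34, 5.50 and 18.4 CPM in WT and at 1.66, 0.896 and 0.986 CPM in KO. Aspn (asporin), a relative of decorin, was 1.38 to 6.21 CPM in WT and 0.159 to 0.219 CPM in KO.

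Fbn2, a fibrillin of developing microfibrils, stood at 13.0, 11.7 and 26.6 CPM in WT and at 3.56, 3.44 and 5.37 CPM in KO. Its log2 fold change was -2 ± 0.42 with 6 libraries. Ltbp2, a microfibril protein of the latent TGF-beta binding family, stood at 3.42, 2.32 and 3.14 CPM in WT and at 0.531, 0.520 and 0.127 CPM in KO. WT line 3 was not the highest library for Ltbp2, and its log2 fold change was -2.86 ± 0.57 with 6 libraries and -2.46 ± 0.30 without KO line 3. Fbn1, Fbln5, Mfap2, Bgn and Postn also held as lower. Postn (periostin), a matrix protein of fibroblasts and periosteum, stood at 32.7, 25.8 and 54.9 CPM in WT and at 7.22, 9.22 and 1.97 CPM in KO.

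The fibroblast and mesenchymal markers included several of the same genes. Of 12 tested, 7 held as lower and 0 as higher, against 1.46% and 0.391% of all genes. The 7 were Col1a1, Col1a2, Col3a1, Dcn, Lum, Postn and Pdgfrb, the last a receptor of pericytes and fibroblasts. The list's median log2 fold change was -2.19 in both fits. Some markers of the same list overlapped between the groups. Pdgfra stood at 36.6, 35.2 and 99.9 CPM in WT and at 50.4, 2.28 and 509 CPM in KO, and Fn1 (fibronectin) stood at 131, 114 and 327 CPM in WT and at 90.0, 29.6 and 540 CPM in KO. Twist1, a mesenchymal transcription factor, was separate by a narrow gap, at 8.97 to 10.3 CPM in WT and 4.90 to 8.56 CPM in KO, but did not hold. The summed level of the list was 812 to 1550 CPM in WT and 607 to 1240 CPM in KO, and no tested member was at 0 in all libraries. Whether a change in the number of such cells has a part in the matrix result was not tested.

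**Figure D3:**
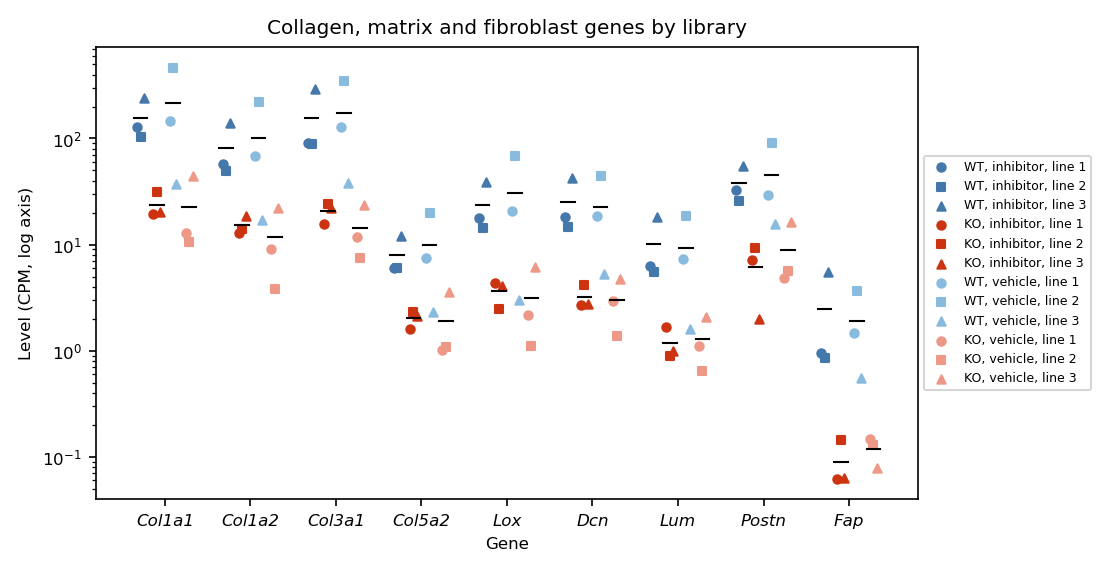
Level in CPM (log axis) of 9 matrix and fibroblast genes in each of the 12 libraries, dark points for the inhibitor and pale points for vehicle, blue for WT and red for KO; bars are group means. Under the inhibitor each gene's 3 KO points lie below its 3 WT points, as for Col1a1 (19.5 to 31.0 against 103 to 241 CPM).

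The named genes with the lowest ratios outside the collagen list were mostly scarce, and several are also known from mesenchyme. Fap, a serine protease of activated fibroblasts, stood at 0.953, 0.861 and 5.58 CPM in WT and at 0.0625, 0.145 and 0.0636 CPM in KO. Eng (endoglin), a TGF-beta co-receptor of endothelium and mesenchyme, stood at 1.48, 0.823 and 1.88 CPM in WT and at 0.0937, 0.231 and 0.159 CPM in KO. The chemokines Ccl7 and Ccl11, which recruit leukocytes, were 0.674 to 4.23 CPM in WT and 0 to 0.405 CPM in KO. A value of 3 counts, the most that a count of 0 allows, corresponded to 0.0867 to 0.112 CPM, so the KO levels of Fap and Ccl7 lay near the limit of detection. Ptprv, a receptor-type phosphatase gene first known from bone, stood at 5.58, 3.78 and 16.1 CPM in WT and at 0.750, 0.983 and 0.350 CPM in KO, with a log2 fold change of -3.56. Cpz, a Wnt-related carboxypeptidase, and Hoxc8, a posterior patterning gene that overlaps Hoxc5 on the same strand, had log2 fold changes of -3.20 and -3.40.

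Genes for matrix-sensing receptors and remodelling enzymes were also among those held, and are named after their values were seen. DESeq2 called Thbs2, Itga11, Mrc2, Ddr2, Emilin1 and Adamts2 in both fits. Itga11 encodes the alpha subunit of a collagen-binding integrin, Ddr2 a collagen receptor kinase, and Adamts2 a procollagen N-proteinase. Their log2 fold changes with 6 libraries were -2.64 (Itga11), -1.72 (Ddr2) and -2.35 (Adamts2). Thbs2 (thrombospondin 2) was -2.43, Mrc2, an endocytic collagen receptor, was -2.25 and Emilin1 was -1.63.

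Basement membrane genes did not behave as one group. Of 18 tested, 2 held as lower, Lama4 and Col18a1, against 1.46% of all genes. The list's median log2 fold change was 1.32 with 6 libraries, -1.08 without KO line 3 and -0.48 without both line 3 libraries. Lama4, a laminin chain of vessel and muscle basement membranes, stood at 6.11, 5.88 and 12 CPM in WT and at 0.625, 1.18 and 2.61 CPM in KO. The summed level of the list was 42500 CPM in KO line 3 against 645 to 9070 CPM elsewhere, so this library sets the sign of the list's median.

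Meg3, Lrmp and Rec8 are other lower genes that the naming rule or a closer look at the values brought up. Lrmp (chromosome 6, 145115653 to 145174934), an endoplasmic reticulum membrane protein of lymphoid cells, had 595, 425 and 18 counts in WT and 0, 1 and 4 counts in KO. The WT library of line 3 was the exception to an otherwise large gap. The KO counts lie at about the floor of 3 counts, so no fold change is given. In vehicle Lrmp had 591, 145 and 498 counts in WT and 0, 0 and 2 in KO. The genes opposite it are Casc1 and Gm43910, and the strand setting of the counting is not given in the sources used here.

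Meg3 (chromosome 12, 109541001 to 109571726), an imprinted long noncoding RNA, stood at 22.6, 16.4 and 450 CPM in WT and at 0.656, 1.53 and 0.382 CPM in KO. The WT library of line 3 was far above the other WT libraries, and without both line 3 libraries the log2 fold change was -4.12, against -7.51 ± 1.80 with 6 libraries. Rec8 (chromosome 14, 55618037 to 55625395), a meiotic cohesin subunit, stood at 28.6, 25.7 and 31.2 CPM in WT and at 13.4, 12.8 and 8.36 CPM in KO, with little spread within a group. Its log2 fold change was -1.27 ± 0.22 with 6 libraries and -1.09 ± 0.11 without KO line 3. The DESeq2 adjusted p was 0.000639 with 6 libraries, and over the alternatives to that fit the adjusted p ran from 0.000639 to 1. DESeq2 gave 6.31e-11 as its adjusted p without KO line 3. Of the 16 cohesin and meiotic genes tested, Rec8 held as lower and Sycp3, a synaptonemal complex protein at 0.337 to 0.528 CPM in WT, held as higher. Over all genes, 1.46% held as lower and 0.391% as higher.

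Some signalling genes held as well. Gli1 and Gli2, transcription factors of the Hedgehog pathway, were the 2 of 13 Hedgehog genes that held as lower, against 1.46% of all genes. Gli1 had a log2 fold change of -2.76 with 6 libraries and -2.68 without KO line 3. Gli2 stood at 2.86, 2.10 and 2.68 CPM in WT and at 1.22, 0.896 and 0.890 CPM in KO, with a log2 fold change of -1.31. Bmp4, a secreted ligand of the BMP family, stood at 6.01, 5.58 and 5.12 CPM in WT and at 3.90, 3.35 and 2.83 CPM in KO. Its log2 fold change was -0.69 ± 0.24 with 6 libraries and -0.59 ± 0.19 without KO line 3. Dvl1, a Dishevelled protein of the kind through which Daam1 is known to be activated, stood at 140, 121 and 125 CPM in WT and at 94.1, 104 and 65.7 CPM in KO. Its log2 fold change was -0.51 ± 0.20 with 6 libraries and -0.35 ± 0.11 without KO line 3. It was the only 1 of 21 Wnt and planar polarity genes to hold, where 1.85% of all genes did.

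The listed genes of sugar metabolism were mostly higher in KO, but most of them had p below 0.05 only while KO line 3 was left out. Glycolysis splits glucose into pyruvate, and Hk2, Slc2a1, Ldha, Pdk1 and Bnip3 are textbook targets of hypoxia-inducible factor. Of the 23 genes of the glycolysis and hypoxia list that were tested, 20 were higher and 1 was lower at p below 0.05 without KO line 3, against 5.68% and 6.2% of all genes. With all 6 libraries 3 were higher (0.471% of all genes), and these 3 held in both: Hk2, Slc2a1 and Vegfa. The list's median log2 fold change was 0.43 with 6 libraries, 0.68 without KO line 3 and 0.68 without both line 3 libraries. DESeq2 called 16 of the list as higher without KO line 3 and 1 with it.

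Hk2 (chromosome 6, 82725025 to 82774454), hexokinase 2, which traps glucose as glucose 6-phosphate, stood at 23.3, 24.2 and 40.6 CPM in WT and at 53.6, 85.7 and 86.6 CPM in KO. Every KO library was above every WT library, and the log2 fold change was 1.41 ± 0.32 with 6 libraries and 1.28 ± 0.34 without KO line 3. Slc2a1, the glucose transporter GLUT1, stood at 39.2, 43.1 and 62.4 CPM in WT and at 70.9, 69.0 and 190 CPM in KO, with a log2 fold change of 1.24 ± 0.48 with 6 libraries and 0.57 ± 0.20 without KO line 3. Vegfa, the vascular growth factor, stood at 96.1, 94.2 and 121 CPM in WT and at 123, 152 and 182 CPM in KO, so its groups were separate by a narrow gap. Ak4, a mitochondrial adenylate kinase outside the list that held, stood at 22.0, 25.1 and 27.3 CPM in WT and at 41.9, 54.9 and 36.5 CPM in KO. Eno3, the muscle enolase, also outside the list and named after its values were seen, held in the other direction, with a log2 fold change of -0.69 with 6 libraries and -0.72 without KO line 3. DESeq2 called it lower in both fits.

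Other genes of the list were high in KO lines 1 and 2 and low in KO line 3, but this was not true of all. With 6 libraries, 5 list genes had every KO library above every WT library, against 3.57% of all genes, and 3 held. Pdk1, the kinase that shuts pyruvate dehydrogenase, stood at 75.1, 80.8 and 71.9 CPM in WT and at 144, 189 and 46.4 CPM in KO. Ldha, the lactate dehydrogenase subunit that makes lactate, stood at 422, 521 and 446 CPM in WT and at 806, 913 and 367 CPM in KO. Bnip3, a mitophagy receptor, stood at 201, 223 and 226 CPM in WT and at 385, 499 and 165 CPM in KO. These genes, with Pfkl and Tpi1, were picked for description after their values were seen. Without KO line 3 the log2 fold changes were 1.16 ± 0.15 for Pdk1, 0.92 ± 0.14 for Ldha and 1.06 ± 0.14 for Bnip3, and with it they were 0.77, 0.62 and 0.73. Adm, a vasodilator peptide induced by low oxygen, was the exception, at -0.98 without KO line 3. The summed level of the list was 7120, 8010 and 7270 CPM in WT and 10800, 12400 and 5150 CPM in KO, while the summed presynaptic genes were 10800, 11200 and 9400 CPM in WT and 11600, 12600 and 3030 CPM in KO. Whether neuronal content has a part in the glycolysis values was not tested.

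In vehicle the same list showed no shift of its median, which was 0.01, with 12 genes higher and 11 lower. The vehicle library of WT line 2 was high in these genes, and without it the median was 0.16, with 22 higher and 1 lower. Pdk1 stood at 89.0, 139 and 100 CPM in WT vehicle libraries and at 103, 95.1 and 137 CPM in KO vehicle libraries. Under the inhibitor the 3 WT libraries were therefore below every vehicle library for Pdk1, and KO lines 1 and 2 were above. The genotype difference was tested against that in vehicle in one edgeR model over the libraries, as an interaction. For no gene was the interaction called at an adjusted p below 0.05: 0 of 15443 (0%) with 12 libraries, where 185 genes (1.2%) had an unadjusted p below 0.05, 0.641% positive and 0.557% negative. Without the library labelled KO line 3, 0 of 15591 were called and 317 (2.03%) had p below 0.05, 0.962% positive and 1.07% negative. The list's median interaction was 0.48 with 12 libraries, where 3 genes were positive at p below 0.05, and 0.63 without KO line 3, where 14 were. It was 0.50, with 11 genes, when the vehicle library of WT line 2 was left out as well, where all genes had 1.29% positive and 0.696% negative. For Bnip3 the interaction was 0.82 without KO line 3 and 0.85 without both of these libraries.

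**Figure D4:**
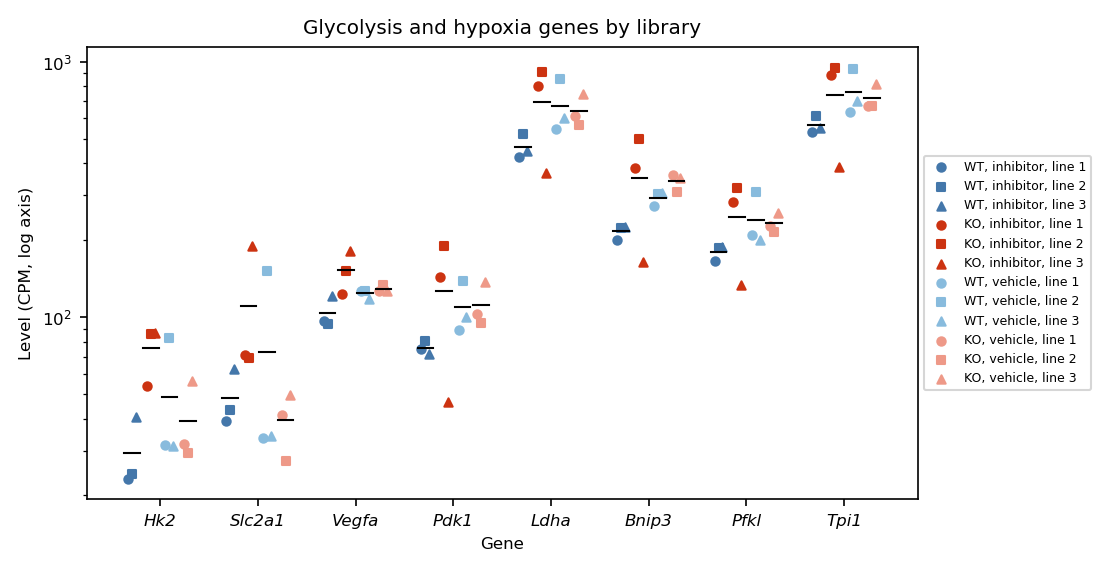
Level in CPM (log axis) of glycolysis and hypoxia genes in each of the 12 libraries, with colours and shapes by genotype, treatment and line. Under the inhibitor KO lines 1 and 2 lie above the 3 WT lines, as for Ldha (806 and 913 against 422 to 521 CPM), and KO line 3 lies at the low end for all plotted genes but Hk2, Slc2a1 and Vegfa.

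The promoters of these genes were searched for ACGTG, the letters at the heart of the element to which hypoxia-inducible factor binds, on both strands of the 250 bases before each start. Of the 22 list genes with a promoter in the RefSeq table (GRCm38.p6), 11 (50%) held it, against 4998 of 27025 genes with a promoter (18.5%). The list was drawn up from glycolysis and hypoxia genes, so its share describes the list and is not a result about KO and WT. A match is a description of the letters and not evidence of binding. Stretches of 60 bases from 4 of them are printed with the matches in capitals, to show where the letters lie; CACGTG holds 1 match on each strand, overlapping.
Bnip3, chr7:138909585-138909644, minus strand: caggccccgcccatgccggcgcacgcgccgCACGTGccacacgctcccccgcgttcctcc
Ldha, chr7:46845715-46845774, plus strand: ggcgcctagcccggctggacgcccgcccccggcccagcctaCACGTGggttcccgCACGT
Pgam1, chr19:41911727-41911786, plus strand: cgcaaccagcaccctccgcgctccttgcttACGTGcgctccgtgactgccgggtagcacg
Pkm, chr9:59657122-59657181, plus strand: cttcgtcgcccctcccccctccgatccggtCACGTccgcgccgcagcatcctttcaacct
Ldha held 3 matches in its window, Bnip3 2, and Pgam1 and Pkm 1 each. Pgam1 and Pkm encode the late glycolytic enzymes phosphoglycerate mutase and pyruvate kinase, and they stood at 745 to 889 and 776 to 860 CPM in WT. In KO lines 1 and 2 they stood at 1240 and 1430 CPM (Pgam1) and at 1160 and 1290 CPM (Pkm), and in KO line 3 at 367 and 607 CPM.

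The genes encoded by mitochondrial DNA, which code for subunits of the respiratory chain, were lower in KO. Their summed level was 152000, 159000 and 165000 CPM in WT and 127000, 139000 and 90400 CPM in KO, with no overlap. Of the 13 genes, 12 were below every WT library in both fits, against 7.01% of all genes with 6 libraries and 19.6% without KO line 3. The 13 lie on the same mitochondrial DNA, so they are not 13 independent observations. The list's median log2 fold change was -0.37 with 6 libraries and -0.23 without KO line 3, but 1 gene held, mt-Nd6, and 4 had p below 0.05 without KO line 3. Mt-Nd6, a complex I subunit, stood at 133, 121 and 143 CPM in WT and at 83.6, 92.5 and 71.8 CPM in KO, with a log2 fold change of -0.64 ± 0.15. It lies opposite mt-Nd5, so its reads are uncertain without knowledge of the strand setting. In vehicle the summed level was 139000 to 155000 CPM in WT and 131000 to 179000 CPM in KO, which overlapped. Nuclear genes of oxidative phosphorylation had a median log2 fold change of -0.02 with 6 libraries and 0.09 without KO line 3. Of 27 tested, 0 held, where 1.85% of all genes did.

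The 59 genes that held as higher in KO were of mixed function. Triobp (chromosome 15, 78947724 to 79005869), which binds Trio and bundles filamentous actin, stood at 30.8, 32.0 and 39.1 CPM in WT and at 65.9, 91.3 and 69.3 CPM in KO. The groups were far apart, with a log2 fold change of 1.19 ± 0.19 with 6 libraries and 1.24 ± 0.18 without KO line 3. Its edgeR adjusted p was 0.98 with 6 libraries and its DESeq2 adjusted p was 0.00012, and over the alternatives to that fit the adjusted p ran from 0.00012 to 1. The DESeq2 adjusted p without KO line 3 was 2.69e-06. In vehicle Triobp stood at 36.4, 86.8 and 37.7 CPM in WT and at 40.6, 35.6 and 57.0 CPM in KO, with overlap and a log2 fold change of -0.28.

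Slc38a3, a glutamine transporter, stood at 2.40, 2.84 and 3.27 CPM in WT and at 5.44, 7.77 and 5.75 CPM in KO, with a log2 fold change of 1.20 ± 0.28. Padi2, which converts arginine to citrulline in proteins, stood at 2.86, 2.99 and 2.74 CPM in WT and at 5.06, 6.42 and 6.90 CPM in KO, with a log2 fold change of 1.14 ± 0.25. Kcnip3, a calcium-binding partner of potassium channels, stood at 1.22, 0.898 and 1.09 CPM in WT and at 1.87, 3.47 and 3.78 CPM in KO, with a log2 fold change of 1.55 ± 0.38. Each of the 3 genes was separate between the groups and at a low level. Slc17a7, the vesicular glutamate transporter of cortical and hippocampal neurons, stood at 0.624, 0.599 and 0.991 CPM in WT and at 1.28, 1.36 and 1.37 CPM in KO. It was also separate in vehicle, where 7.89% of all genes were separate with KO higher and 4.66% with KO lower, with a log2 fold change of 0.73 there and 0.89 under the inhibitor. Bnip3l, a mitophagy receptor related to Bnip3, had a log2 fold change of 0.54 with 6 libraries and 0.53 without KO line 3, and is named after its value was seen.

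Class I histocompatibility genes, which present peptides to T cells, were among the higher genes. H2-K1 stood at 25.8, 31.4 and 34.9 CPM in WT and at 44.1, 53.3 and 153 CPM in KO, and H2-D1, H2-Q4 and H2-Q7 held too. H2-T23, a nonclassical class I gene named after its values were seen, also held, at 1.16 with 6 libraries and 1.5 without KO line 3, but its groups overlapped. These genes are close relatives, and reads shared between them could be split in ways that the counts do not show, so they are not independent. Not all such genes were higher. H2-M3, also class I, did not hold, at 0.32 with 6 libraries and -0.18 without KO line 3. The class I-like Cd1d1 and the class II gene H2-Eb1 held as lower. Their log2 fold changes were -0.79 and -2.9 with 6 libraries, and -0.81 and -3.33 without KO line 3. Of the 20 interferon response genes tested, 2 held as higher, against 0.391% of all genes. The list's median log2 fold change was 1.46 with 6 libraries, -1.38 without KO line 3 and -0.79 without both line 3 libraries. Hspa1a and Hspa1b, inducible HSP70 chaperones with almost the same sequence, held as higher by 0.60 and 0.73, and are uncertain for the same reason. They were the 2 of 17 heat shock genes to hold, where 0.391% of all genes held as higher. Sesn2, a stress-induced inhibitor of TORC1, stood at 106, 108 and 123 CPM in WT and at 136, 143 and 149 CPM in KO.

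Markers of glia were few among the held genes. Sparcl1, an astrocyte-secreted matrix protein, stood at 142, 144 and 153 CPM in WT and at 167, 232 and 194 CPM in KO, and had the same log2 fold change, 0.48, under the inhibitor and in vehicle. It was the 1 of 13 astrocyte markers to hold, where 0.391% of all genes held as higher. Gfap, the astrocyte filament protein, stood at 146, 117 and 140 CPM in WT and at 76.3, 54.8 and 598 CPM in KO, with KO line 3 the highest library. Olig1, an oligodendrocyte transcription factor, was 1.87 to 1.92 CPM in WT and 3.55 to 24.5 CPM in KO.

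Few genes of the actin and myosin lists held in both fits, and over all genes 1.85% held. For lists this short, 0 held is near that share and is not a result about them. Of 14 formins, the family of Daam1, 0 held. Of 28 actin cytoskeleton and SRF target genes 0 held, with a median of 0.36 with 6 libraries, -0.55 without KO line 3 and -0.15 without both line 3 libraries. Of 21 YAP and TEAD targets 0 held, and their median was 0.70, -0.62 and -0.15 in the same 3 fits. Without KO line 3, 11 of the 28 actin and SRF genes were separate with KO lower and 3 with KO higher, against 19.6% and 17.3% of all genes. There 5 were lower and 1 higher at an unadjusted edgeR p below 0.05, against 6.2% and 5.68%, and DESeq2 called 3 lower. Of 9 nonmuscle myosin II genes and regulators, Myh14 held as higher, at 4.92 to 6.44 CPM in WT and 7.75 to 11.3 CPM in KO, and Mylk, the kinase of the myosin light chain, held as lower. Of 26 immediate early genes, which neuronal activity induces, 0 held, with medians of 0.16 and 0.14.

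Neuronal and proliferation lists took their sign from the library labelled KO line 3. All 24 presynaptic genes had a negative log2 fold change with 6 libraries, a median of -0.18, and 20 had a positive one without KO line 3, a median of 0.22; 0 held. Axonal cytoskeleton genes had medians of -0.22 and 0.17, AMPA and NMDA receptor subunits -0.17 and 0.19, and potassium channels -0.19 and 0.18. Without both line 3 libraries the medians of these lists were 0.08, 0.10 and 0.10, and that of the presynaptic list was 0.15. Cell cycle genes had medians of 0.87 with 6 libraries, -0.90 without KO line 3 and -0.21 without both line 3 libraries, and 0 of 28 held. Mki67, a marker of dividing cells, stood at 14.4, 11.1 and 40.5 CPM in WT and at 22.7, 1.18 and 104 CPM in KO, so KO line 2 was the lowest library and KO line 3 the highest. Of the 46 lists, 29 had medians of opposite sign in the fits with and without KO line 3. Over the 767 list genes tested, 60 held, 14 higher and 46 lower, where 0.391% and 1.46% of all genes did.

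**Figure D5:**
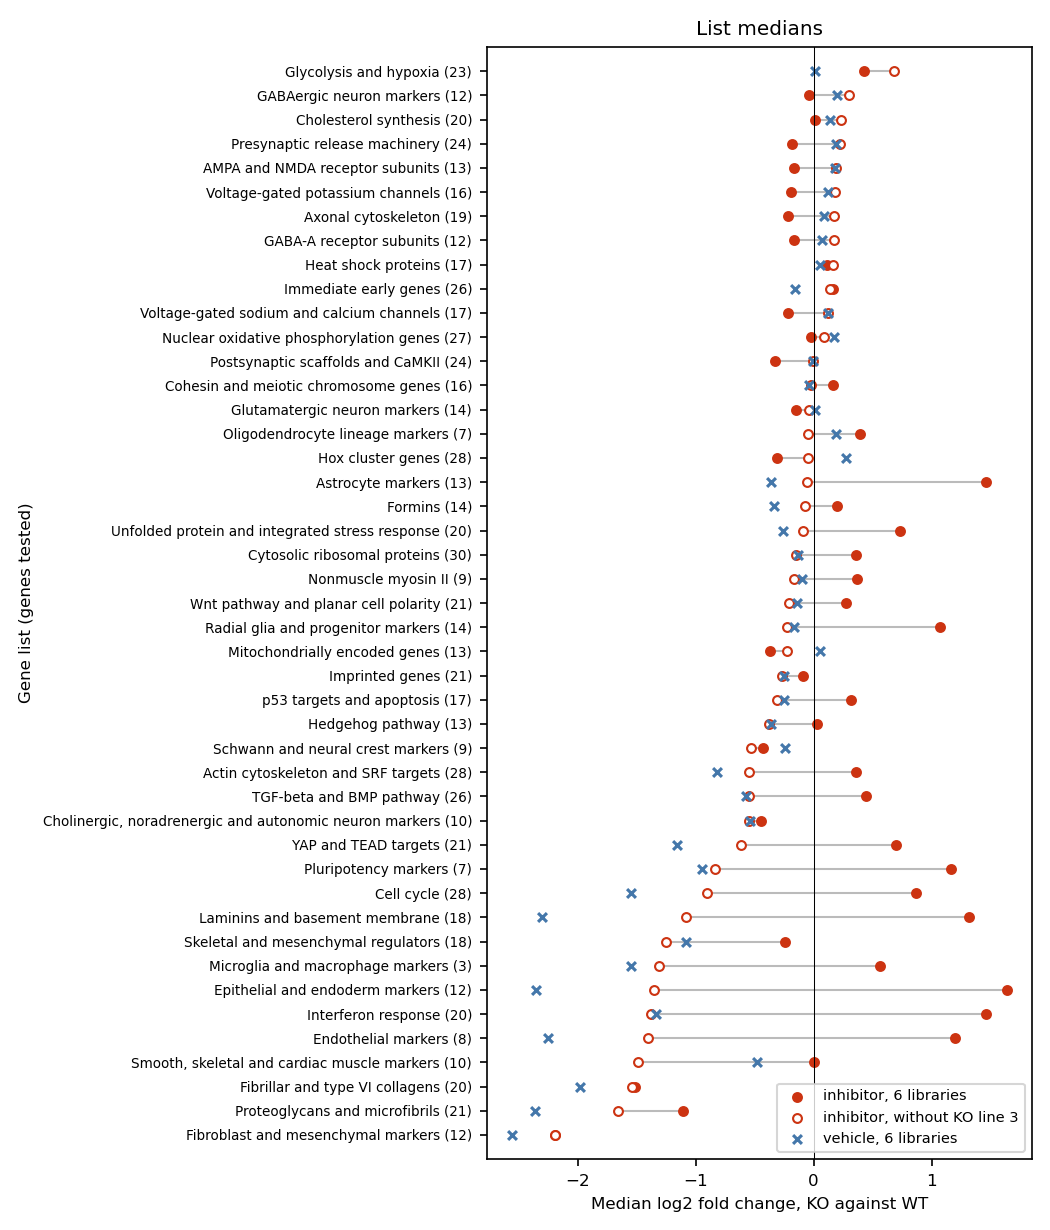
Median log2 fold change of KO over WT for the gene lists plotted, 1 row per list, with filled points for all 6 inhibitor libraries, open points without KO line 3 and crosses for vehicle. The collagen, proteoglycan and fibroblast lists stay below 0 in both (medians from -2.19 to -1.11), glycolysis stays above 0, and the presynaptic and cell cycle lists lie on opposite sides of 0.

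The vehicle libraries of the same 6 lines gave the genotype difference without the inhibitor. No gene was called there at an edgeR adjusted p below 0.05, and 754 of 14668 genes (5.14%) lay under 0.05 before adjustment, with 2.62% up in KO and 2.52% down. Of the 220 genes held as lower, 198 were tested in vehicle, 134 (67.7%) were also lower there, and 67 (33.8%) had p below 0.05. Of the 59 held as higher, 58 were tested, 32 (55.2%) were also higher and 8 (13.8%) had p below 0.05. Over all genes, 36.3% had the same sign in vehicle as under the inhibitor with 6 libraries. Without the vehicle library of WT line 2, in which the collagen list summed to 3650 CPM against 255 to 903 CPM in the other vehicle libraries, 186 of 202 lower genes (92.1%) and 51 of 58 higher genes (87.9%) had their inhibitor direction, against 54.9% of all genes measured the same way. In that fit 2.25% of all genes were higher and 1.91% lower at p below 0.05.

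The collagen genes were mostly lower in KO in vehicle as well. In vehicle Col1a1 stood at 145, 466 and 37.3 CPM in WT and at 12.8, 10.5 and 44.0 CPM in KO, with a log2 fold change of -3.27, and the vehicle libraries of WT line 3 and KO line 3 overlapped. Col3a1 stood at 128, 351 and 37.8 CPM in WT and at 11.9, 7.4 and 23.6 CPM in KO. The collagen list's median in vehicle was -1.98, with 11 of its genes lower at p below 0.05, and -0.85, with 6 genes, without the vehicle library of WT line 2. The list's median interaction was 0.36 with 12 libraries, 0.35 without KO line 3 of the inhibitor, and -0.67 when the vehicle library of WT line 2 was left out as well, so that library sets its sign; 0 of the list had p below 0.05 in any of the 3 fits. Rec8 was lower in vehicle too, by a log2 fold change of -0.62, whereas Hk2, Slc2a1 and Triobp had negative values there (-0.32, -0.90 and -0.28). Those values include the vehicle library of WT line 2, and the values of these 3 genes without it are not given here. Leaving that library out was chosen after the data were seen. Without it, 51 of the 58 genes held as higher that were tested in vehicle were higher in KO there too.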

How the data were processed

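Counts per gene and cRPKM values were deposited by the authors as 1 table per library. The reads came from polyA-selected stranded RNA-seq, per the labels' protocols, and the submitters' processing notes name the mouse build mm10; the aligner, counter and strand setting are not given in the sources used here. The RPKM column deposited by the authors was compared with the counts and not used. Each table lists 36902 genes, of which 3342 had no value in any table and 33560 had counts; 33371 matched a symbol.

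Counts were tested with edgeR 4.0.16 (R 4.3.3; quasi-likelihood F test, TMM, filterByExpr, Benjamini-Hochberg over all genes tested) on the 6 inhibitor libraries and again without KO line 3. Standard errors come from the fold change and its F statistic (the log2 size over the root of F). Levels are CPM on TMM factors over all 12 libraries. DESeq2 1.42.0 and limma 3.58.1 (voom) were alternatives, with other normalizations, filters and libraries left out. The floor of 3 counts and these errors cover counting or replicate spread only. Coordinates are GENCODE M21 (GRCm38); promoters are RefSeq GRCm38.p6. The scripts were tested on simulated data.

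The comparison, the gene lists and the leaving out of KO line 3 were chosen with earlier results of these data known. The rule for naming took Daam1, the 12 highest and 12 lowest genes that held with at least 1 CPM, and list genes that held. It also took 6 genes either way that set KO line 3 apart. Not all genes that the rule took appear in the text, and of the last set only Gkn1, Ddx3y and Eif2s3y do. Every other gene in the text was chosen after its values were seen. Deviations from the group means correlated at 0.381, 0.671 and 0.805 between same-numbered WT and KO inhibitor libraries. The highest correlation with another number was 0.649 for lines 1 and 2 and -0.501 for line 3. In vehicle the same-numbered correlations were -0.366, -0.667 and 0.179. A pairing by line number was therefore not clear, and the number was also fitted as a block. Some list results are not reported here.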

Additional observations from a re-analysis of the deposited data

How the results depend on the processing

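With all 6 inhibitor libraries the count of genes called was 0 with edgeR, 53 with DESeq2 and 2 without both line 3 libraries. Genes with an unadjusted p below 0.05 numbered 330, 606 with DESeq2, 2706 with limma-voom, 540 in a fit of all 12 libraries, 1794 without both line 3 libraries, and 152 (without WT line 1) to 1816 (without KO line 3) when each library was left out in turn; without WT lines 2 and 3 it was 193 and 171. Without KO line 3, DESeq2 called 369 and leaving out a further library gave 0 to 2 (2 without WT line 3), with 512 (without KO line 2) to 2461 (without KO line 1) genes at p below 0.05. In vehicle DESeq2 called 61, and leaving out a library gave 0 to 2 (2 without WT line 2). There 754 genes had p below 0.05, 1138 with DESeq2, 494 with a replicate block and 295 (without KO line 2) to 1586 (without WT line 3) when 1 library was left out. For the interaction 185 genes had p below 0.05, 508 with DESeq2, 393 with no filter on low counts, 77 (without WT line 2 of vehicle) to 1214 (without KO line 2 of the inhibitor) when 1 was left out, and 309 without KO line 3 of the inhibitor and WT line 2 of vehicle, which was chosen after seeing the data. The 279 genes held in both fits numbered 136 to 235 when another library was left out: 136 without WT line 1, 174 without WT line 2, 151 without WT line 3 and 138 without KO line 2. With the replicate block under the inhibitor 0 genes were called, 284 had p below 0.05 with 6 libraries (1492 without KO line 3) and 221 held; it changed no other call. Daam1 ranged from -0.39 to 0.21 as libraries were left out and changed sign, to 0.21 without KO line 3, 0.10 without both line 3 libraries and 0.03 with limma-voom. For the dependence on the line 3 libraries and on the tool, the cause was not tested. Among the named genes 1072 comparisons with an alternative kept direction and side of the threshold, and 31 passed it only under the alternative. A gene near 3 counts per library, such as Fap or Ccl7 in KO, has no usable ratio below that depth.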

Other observations

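Patterning and neuron subtype genes differed between KO and WT in part. Of the 28 Hox genes tested 1 held, Hoxc8, where 1.85% of all genes did. With all 6 libraries, groups did not overlap for 9 of the 28 with KO lower and 1 with KO higher, against 7.01% and 3.57% of all genes. Without KO line 3 these were 11 lower and 7 higher, against 19.6% and 17.3%. The list's median log2 fold change was -0.31 with 6 libraries, -0.05 without KO line 3 and 0.27 in vehicle. Its summed level was 336 CPM in KO line 3 against 875 to 1260 CPM in the other inhibitor libraries. The posterior genes Hoxb9 and Hoxb8 were separate with KO lower but did not hold. Hoxb9 stood at 56.0, 59.1 and 59.5 CPM in WT and at 46.9, 16.2 and 13.0 CPM in KO, and Hoxb8 at 282, 303 and 293 CPM in WT and at 238, 167 and 102 CPM in KO. Hoxb5, a more anterior gene of the same cluster, overlapped, at 77.1, 80.5 and 52.6 CPM in WT and 99.0, 252 and 29.3 CPM in KO. Markers of autonomic neurons were scarce in all libraries. Slc6a2, the noradrenaline transporter, stood at 2.86, 2.36 and 3.24 CPM in WT and at 0.875, 0.173 and 0.413 CPM in KO, and Isl1, a motor and sympathetic neuron factor, also held as lower. In vehicle the log2 fold change of Slc6a2 was -3.57, against -2.50 under the inhibitor. Vip, a neuropeptide of some inhibitory neurons, stood at 1.97, 1.98 and 2.74 CPM in WT and at 0.781, 0.809 and 0.127 CPM in KO. Cdkn1c, an imprinted inhibitor of cell division, stood at 22.0, 23.8 and 29.0 CPM in WT and at 18.4, 14.2 and 14.8 CPM in KO, with a log2 fold change of -0.62 under the inhibitor and -0.99 in vehicle.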
